A study of Mus musculus with 119 samples.

Results

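Anandamide, or N-arachidonoylethanolamine, is an endogenous ligand of the CB1 cannabinoid receptor, the receptor through which THC acts in the brain. The 5 genes described here, Napepld, Abhd4, Gde1, Faah and Ptgs2, encode enzymes that make or remove it. They were listed by name for these roles from the 55291 genes of the count tables, and all 5 passed the filter on low counts in every comparison. The libraries were mRNA-seq of tissue punches from C57BL/6 mice of both sexes. THC at 10 mg/kg or vehicle (Veh) had been injected intraperitoneally once a day from postnatal day (PND) 28 to 48, behavioural testing began at PND 63, and brains were taken from the adult animals thereafter. The punches came from the ventral tegmental area (VTA), the amygdala (Amy), the nucleus accumbens (NAc), the dorsomedial striatum (DMS) and the prefrontal cortex (PFC) of females and males, with 6 libraries in every group but the male VTA Veh group, which had 5, giving 119 libraries. The labels give the strain as C57BL/6J, an age of 11 weeks and dorsolateral striatum as the tissue of the DMS punches, whereas the study's methods name C57BL/6NCrl, a later age and dorsal medial striatum. Per the study's methods, each region of a mouse was sequenced as its own sample, so regions share animals, but the labels tie no library to an animal. Tests between regions therefore treat libraries of the same mice as independent, and p-values measure only the spread between these libraries.

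Neurons make anandamide on demand from N-acyl phosphatidylethanolamine (NAPE), a lipid of their own membranes. Napepld encodes the NAPE-specific phospholipase D, which releases anandamide from NAPE directly. Abhd4 encodes a lipase that strips the acyl chains from NAPE, and Gde1 encodes a phosphodiesterase that cleaves the product to anandamide, so the pair forms a parallel route. Faah encodes fatty acid amide hydrolase, the main anandamide-degrading enzyme of neurons, which splits it into arachidonic acid and ethanolamine. Ptgs2 encodes cyclooxygenase-2, which oxygenates arachidonic acid and also anandamide, and which excitatory forebrain neurons transcribe in response to activity.

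Total counts ranged from 3090998 to 77042133 per library (median 22092612), most widely in VTA, which held both extremes, and least in PFC and DMS. Striatal markers were highest in DMS (mean sum 4150 CPM, the counts-per-million unit, scaled by TMM factors) and NAc (1760 CPM), and VTA markers in VTA (2230 CPM against 2.9 to 11.7 CPM elsewhere). A list of 3 amygdala markers, which shares Slc17a7 with the cortical list, was higher in PFC (2030 CPM) than in Amy (705 CPM), so it did not set Amy apart from cortex. The cortical excitatory markers Slc17a7 and Tbr1 summed to a mean of 2100 CPM in PFC, 668 CPM in Amy and 13.5 to 25 CPM elsewhere. In DMS, 1 female Veh library (FTL_285) held 228 CPM of these markers against 1.9 to 21.3 CPM in the other DMS libraries. The highest sum in NAc was 127 CPM, as it was in VTA. In Amy, 1 male THC library (FTL_352) held 1160 CPM of striatal markers against 115 to 706 CPM in the others. Xist and the Y-linked genes went against the sex label in 1 female Amy THC library (FTL_344) and 1 male Amy THC library (FTL_356). The THC estimates that these 4 libraries moved most are given with and without them, and leaving them out changed no count of members called. In bulk tissue, fewer cells of a type and less RNA per cell cannot be told apart.

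The 300 bases around the start site (250 upstream and 50 downstream, RefSeq, GRCm38.p6) were found for all 5 members and are shown for the 3 whose levels differed most between regions. Capitals mark matches on either strand to a short list of motifs: the cAMP response element (CRE) TGACGTCA, its core CGTCA, the E-box CACGTG, the TATA box TATAAA, the CCAAT box CCAAT and the GC box GGGCGG. The Ptgs2 window, on the forward strand at chr1:150099781-150100080, is 59.3% GC and holds a GC box and, 13 bases after the start site, a CRE core that overlaps an E-box.

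Ptgs2: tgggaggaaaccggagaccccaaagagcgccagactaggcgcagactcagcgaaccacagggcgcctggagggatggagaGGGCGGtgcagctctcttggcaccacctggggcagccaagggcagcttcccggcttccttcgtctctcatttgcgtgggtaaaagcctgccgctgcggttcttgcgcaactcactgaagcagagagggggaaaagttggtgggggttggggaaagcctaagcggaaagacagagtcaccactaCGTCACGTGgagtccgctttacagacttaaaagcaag

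The Faah window, on the reverse strand at chr4:116017875-116018174, is 57.7% GC and holds 2 GC boxes.

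Faah: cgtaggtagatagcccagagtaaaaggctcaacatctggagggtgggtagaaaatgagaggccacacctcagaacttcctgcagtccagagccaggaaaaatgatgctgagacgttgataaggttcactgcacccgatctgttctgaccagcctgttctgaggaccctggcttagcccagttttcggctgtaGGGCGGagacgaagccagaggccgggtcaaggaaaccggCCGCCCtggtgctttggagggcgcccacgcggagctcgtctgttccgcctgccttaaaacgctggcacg

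The Napepld window, on the reverse strand at chr5:21701573-21701872, is the richest in GC of the 3, at 70.3%, and holds none of the motifs. It lies upstream of the gene model whose coordinates are given here, since RefSeq and GENCODE place the start differently.

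Napepld: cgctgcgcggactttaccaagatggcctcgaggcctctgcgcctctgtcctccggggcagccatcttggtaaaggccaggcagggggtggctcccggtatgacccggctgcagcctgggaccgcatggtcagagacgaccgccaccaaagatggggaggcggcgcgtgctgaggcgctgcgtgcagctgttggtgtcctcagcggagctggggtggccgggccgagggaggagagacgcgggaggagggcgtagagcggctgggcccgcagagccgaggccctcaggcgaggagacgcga

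Of 32851 mouse promoter windows of the same length, 37.4% held a CCAAT box, 35.7% a GC box, 13.6% a TATA box, 20.8% a CRE core, 7.15% an E-box and 1.79% a full CRE, which none of the members' windows held. These matches describe the letters of the windows only, and factor binding was not measured.

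Differences between regions were tested with edgeR's quasi-likelihood test over 18932 genes, with Benjamini-Hochberg (BH) adjustment. A difference was called where the adjusted p was under 0.05 and the absolute log2 fold change was at least 0.4. Of 50 differences (5 genes in 10 pairs of regions), 33 were called, against 45.8% of all gene-by-pair tests. PFC and DMS came in a different set of libraries from NAc, Amy and VTA. In pairs that cross the sets, DMS and NAc among them, region and set cannot be told apart. Faah was called in 10 of 10 pairs, Ptgs2 in 7, Napepld and Abhd4 in 6 each and Gde1 in 4. By pair, the members called were 5 between PFC and DMS (50.8% of all genes tested were called there), 5 between PFC and NAc (47.1%), 4 between PFC and VTA (56.6%) and 3 between PFC and Amy (37.7%). Between DMS and NAc, the pair of striatal regions, only Faah was called (33.5%). In each of the other 5 pairs, 3 members were called, where 44.9% (DMS and Amy), 58.9% (DMS and VTA), 27.5% (NAc and Amy), 54.7% (NAc and VTA) and 46.3% (Amy and VTA) of all genes were. The ratio of the highest to the lowest regional mean was 7.71 for Ptgs2, 7.19 for Faah, 3.29 for Napepld, 2.34 for Abhd4 and 1.86 for Gde1, with a median of 1.9 over 18856 genes.

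The libraries of a pair of regions did not overlap for 5 members between PFC and DMS (30.2% of all genes did not) and between PFC and NAc (27.5%), and for 4 between PFC and VTA (32.4%). They did not overlap for 3 members between PFC and Amy (16.3%), DMS and VTA (32.1%) and NAc and VTA (25.1%), and for 2 between DMS and Amy (18.8%). Between NAc and Amy only Faah (6.77%), between Amy and VTA only Abhd4 (15.4%) and between DMS and NAc no member (10.7%) was free of overlap.

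**Figure D1:**
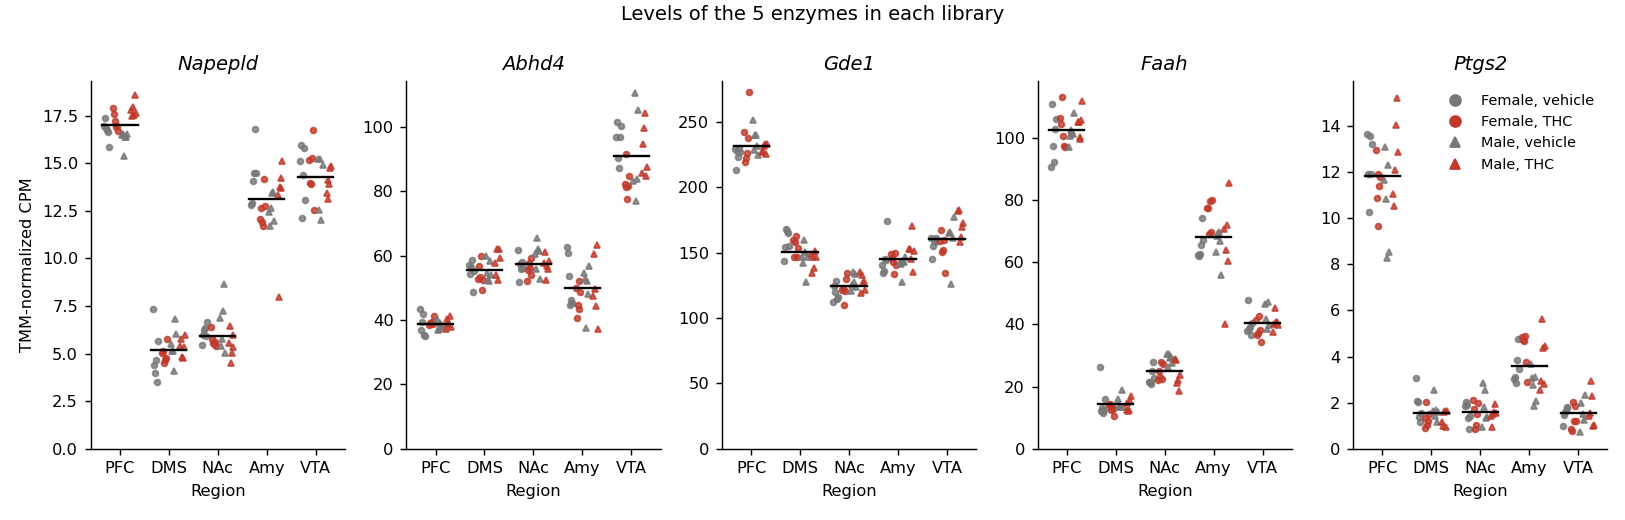
Level of each gene in every library, as TMM-normalised CPM (y axis, from 0), by region (x axis). Colours give the treatment, circles are females, triangles are males, and a black line marks the mean of each region. Faah falls from 102 CPM in PFC to 14.3 CPM in DMS, Ptgs2 stands apart in PFC at 11.8 CPM, and Abhd4 is lowest in PFC (38.8 CPM) and highest in VTA (90.8 CPM).

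Napepld (chr5:21662901-21701396, reverse strand, GRCm38) was highest in PFC, at 17 ± 0.72 CPM (SD, n = 24; lowest 15.4, median 16.9, highest 18.6). VTA followed at 14.3 ± 1.28 CPM (n = 23; 12, 14.4 and 16.7) and Amy at 13.1 ± 1.63 CPM (n = 24; 7.98, 13.1 and 16.8). The striatal regions were far lower, with 5.94 ± 0.849 CPM in NAc (4.51, 5.76 and 8.66) and 5.17 ± 0.867 CPM in DMS (3.5, 5.14 and 7.34). The drop came between Amy and NAc, where Napepld was 2.2-fold higher in Amy (log2 difference 1.14, adjusted p = 8.99e-42). The lowest Amy value, from FTL_352, was the only one under the highest of NAc. Neighbours in this order otherwise differed by 0.26 (PFC over VTA), 0.12 (VTA over Amy) and 0.20 (NAc over DMS) on the log2 scale, each under the fold threshold with adjusted p of 2.18e-07, 0.0161 and 0.000368.

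Abhd4 (chr14:54254188-54270637, forward strand) had an order unlike that of the other members. It was highest in VTA, at 90.8 ± 9.5 CPM (n = 23; lowest 77, median 87.5, highest 110), and every VTA library lay above every library of the other regions. NAc (57.3 ± 3.51 CPM) and DMS (55.5 ± 3.69 CPM) overlapped, with a log2 difference of 0.05 (95% interval -0.03 to 0.12) and an adjusted p of 0.271. Amy held 49.9 ± 7.35 CPM and PFC, the lowest, 38.8 ± 1.95 CPM (35.1, 38.8 and 43.4). VTA was 1.59-fold above NAc (log2 difference 0.67, adjusted p = 9.47e-33) and 2.34-fold above PFC (1.23, adjusted p = 4.05e-55). The 5 oligodendrocyte markers were ordered alike at the ends, with a mean sum of 13900 CPM in VTA and 2730 CPM in PFC. Astrocyte and endothelial sums were highest in VTA too, at 1490 and 182 CPM, against 660 and 98.4 CPM in PFC. The microglial sum was highest in DMS, at 254 CPM. The part of these markers in the order of Abhd4 was not tested.

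Gde1 (chr7:118688545-118705778, reverse strand), the phosphodiesterase downstream of Abhd4, varied least between regions. PFC held 232 ± 11.9 CPM (lowest 214, median 229, highest 273.2), VTA 160 ± 13.3, DMS 151 ± 10, Amy 145 ± 10.4 and NAc 125 ± 7.17 CPM. PFC stood above all the others, by 1.45-fold over VTA (log2 difference 0.53, adjusted p = 1.41e-37) and 1.86-fold over NAc (0.90, adjusted p = 8.12e-58). Among the other regions no difference reached the fold threshold, and DMS and Amy, neighbours in the order, differed by 0.05 with an adjusted p of 0.0578. The order of VTA and DMS was not stable: DMS was lower by 0.09 on the log2 scale (adjusted p = 0.0013) over all libraries, but the difference was 0.0083 in DMS's favour (adjusted p = 0.841) in female libraries alone and -0.01 (adjusted p = 0.816) in Veh libraries alone.

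Faah (chr4:115967145-116017926, reverse strand) differed between all 5 regions. PFC held 102 ± 5.65 CPM (n = 24; lowest 90.6, median 102, highest 113). Amy held 68 ± 9.22 CPM (40.1, 68.8 and 85.3), VTA 40.4 ± 3.51 CPM (34.3, 39.9 and 47.7) and NAc 25.2 ± 3.52 CPM (18.6, 25.1 and 30.4). DMS was lowest, at 14.3 ± 3.21 CPM (10.6, 13.3 and 26.4), where the highest value belonged to FTL_285, which held cortical markers. PFC was 7.19-fold above DMS (log2 difference 2.85, 95% interval 2.74 to 2.96, adjusted p = 1.14e-73). All neighbours in the order differed beyond the fold threshold: PFC over Amy by 0.59, Amy over VTA by 0.74, VTA over NAc by 0.69 and NAc over DMS by 0.82 on the log2 scale.

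Ptgs2 (chr1:150100031-150108227, forward strand) was far higher in PFC than elsewhere. It reached 11.8 ± 1.67 CPM there (n = 24; lowest 8.26, median 11.9, highest 15.2) and 3.59 ± 0.998 CPM in Amy (1.85, 3.29 and 5.65). NAc (1.61 ± 0.507 CPM), DMS (1.56 ± 0.516 CPM) and VTA (1.53 ± 0.552 CPM) did not differ beyond their spread. The log2 difference between DMS and NAc was -0.04 (95% interval -0.28 to 0.20, adjusted p = 0.774) and that between DMS and VTA -0.01 (-0.26 to 0.23, adjusted p = 0.916). PFC was 3.3-fold above Amy (log2 difference 1.72, adjusted p = 1.65e-30), and Amy 2.24-fold above NAc (1.16, adjusted p = 1.1e-16). Low levels rested on few reads, with a median count of 30.5 in DMS, 35 in NAc and 32 in VTA and a lowest count of 5 in a VTA library, against a median of 244.5 in PFC.

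Levels of different genes were compared per kilobase of the longest protein-coding transcript. In PFC, Gde1 stood at 147 CPM per kb, Faah at 26.8, Abhd4 at 15.5, Napepld at 4.3 and Ptgs2 at 2.66. Faah and Abhd4 depend on the length used: per kb of the merged exons of all transcripts, chosen after seeing the data, Faah in PFC stood at 13.1 and Abhd4 at 11.8. In DMS the order of Faah and Abhd4 was turned, with 22.1 CPM per kb for Abhd4 and 3.72 for Faah (16.9 and 1.82 by merged exons). On the transcript lengths, Gde1 made up 66.6% to 77.5% of the summed CPM per kb of the 5 genes in every region. Faah took 13.7% of the sum in PFC and 13.3% in Amy, but 6.96% in VTA, 5.97% in NAc and 3.04% in DMS. The share of Abhd4 ran from 7.91% in PFC to 23.8% in VTA. Napepld, the direct route to anandamide, took 1.07% to 2.48% and Ptgs2 0.226% to 1.36%.

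**Figure D2:**
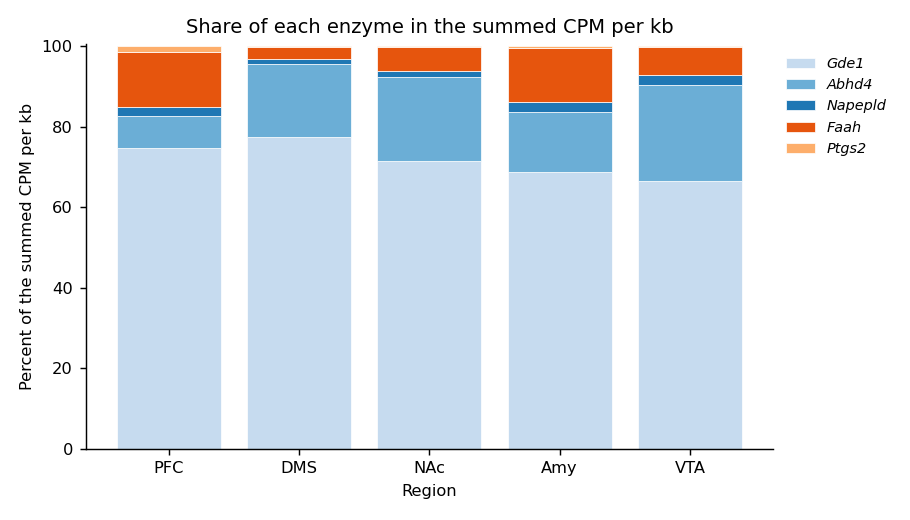
Share of each gene (percent, y axis from 0 to 100) in the summed CPM per kb of the 5 genes, by region (x axis), from region means. Gde1 fills 66.6% to 77.5% of every bar, while Faah shrinks from 13.7% in PFC to 3.04% in DMS and Abhd4 grows from 7.91% in PFC to 23.8% in VTA.

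The synthesis gene Napepld and the breakdown gene Faah fell together from cortex to striatum, but not by the same factor. The log2 ratio of their CPM values was -2.589 in PFC (SD 0.088, n = 24), -2.373 in Amy (SD 0.181), -2.082 in NAc (SD 0.222), -1.502 in VTA (SD 0.174) and -1.453 in DMS (SD 0.207). The unlogged ratio was 0.166 in PFC and 0.365 in DMS. It is not scaled for length, so it compares libraries and not the levels of the genes. Over the 119 libraries the log2 CPM values of the pair had a Pearson r of 0.905, over libraries that differ by region. After the mean of each group was taken off, r was 0.588 (Spearman's rho 0.414), the highest of the 10 pairs of members, and the other 9 lay between -0.161 and 0.05. FTL_285 and FTL_352, which held markers of other regions, were included, and r without them was not computed. Libraries share their region, punch and depth, so these values are descriptions.

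**Figure D3:**
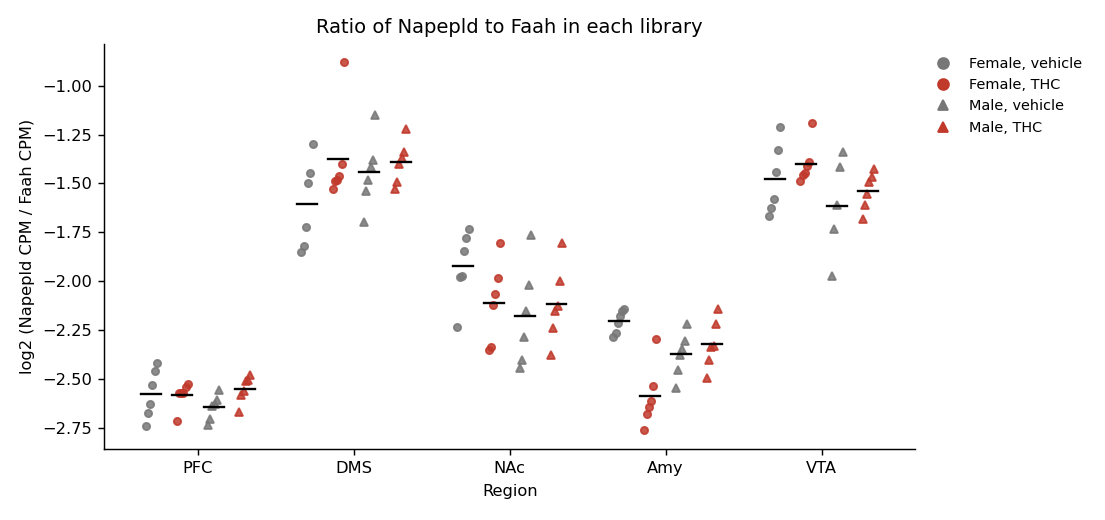
Log2 ratio of Napepld to Faah CPM in each library (y axis), by region, sex and treatment (x axis), with a line at each group mean. The mean over a region is lowest in PFC (-2.589) and highest in DMS and VTA. The female Amy THC libraries have the same mean as PFC. In female Amy all 6 THC libraries lie below all 6 Veh libraries, and no share of other gene pairs that do so was computed.

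THC was compared with vehicle in each region and sex, as the design implies, with edgeR's quasi-likelihood test and BH adjustment over all genes. None of the 50 differences (5 genes in 10 groups) was called, with 5 of 50 at an unadjusted p under 0.05. Over all genes 0.167% of tests were called, 1.57% in female Amy, 0.0127% in female DMS and 0 in the other 8 comparisons, and 8.15% had an unadjusted p under 0.05. DESeq2 called none of the 50 either. It gave no adjusted p for Napepld and Ptgs2 in female PFC, or for Ptgs2 in female DMS and male NAc, so those could not be called. The 95% intervals bound the effects: 38 of 50 lay within 0.4 of 0 on the log2 scale, all 10 of Abhd4, all 10 of Gde1, 9 of Napepld, 8 of Faah and 1 of Ptgs2. For Ptgs2 the data therefore leave room for changes of the size of the fold threshold in 9 of the 10 groups.

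**Figure D4:**
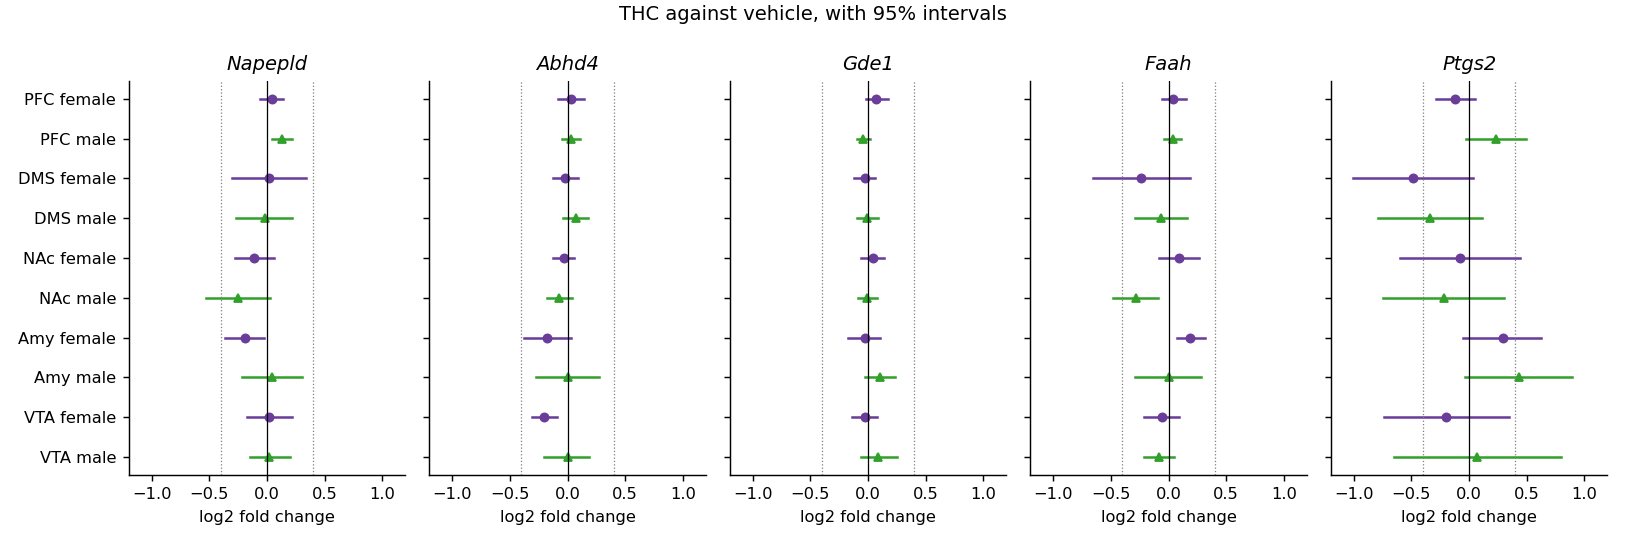
Log2 fold change of THC over Veh (x axis) for each gene, region and sex, with 95% intervals, circles for females and triangles for males, and dotted lines at -0.4 and 0.4. All intervals of Gde1 and Abhd4 lie between the dotted lines, although Abhd4 reaches -0.20 in female VTA, those of Ptgs2 are the widest, and none of the 50 passed the test.

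Napepld in male PFC was the only one of the 50 comparisons in which the libraries of the groups did not overlap. Of all genes 0.19% did not overlap there, against 0.333% in female PFC, 0.195% and 0.771% in female and male NAc, 0.481% and 0.1% in DMS, 3.76% and 0.106% in Amy, and 0.317% and 0.512% in VTA. The Veh libraries ran from 15.4 to 16.5 CPM with a median of 16.4, and the THC libraries from 17.5 to 18.6 CPM with a median of 17.7. All 6 THC libraries were thus above all 6 Veh libraries, but by little. The log2 fold change was 0.13 (SE 0.04, 95% interval 0.04 to 0.22), with an unadjusted p of 0.00782 (4.07% of all genes had one under 0.05) and an edgeR adjusted p of 1. In female PFC the Veh libraries had a median of 16.8 CPM and the THC libraries of 17.1 CPM, with a log2 fold change of 0.04 (-0.06 to 0.14).

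In female Amy the estimates for Napepld and Faah had opposite signs, and neither passed adjustment, where 21.9% of all genes had an unadjusted p under 0.05. Napepld ran from 12.8 to 16.8 CPM in Veh (median 14.3) and from 11.7 to 14.2 CPM in THC (median 12.4), a log2 fold change of -0.19 (SE 0.08, edgeR adjusted p = 0.166). Faah ran from 61.9 to 74.2 CPM in Veh (median 64.1) and from 69.2 to 79.9 CPM in THC (median 77.4), a log2 fold change of 0.19 (SE 0.06, edgeR adjusted p = 0.0896). The groups overlapped for each gene alone. The log2 ratio of Napepld to Faah did not overlap, at -2.28 to -2.14 in Veh and -2.76 to -2.30 in THC (means -2.206 and -2.589). Of all single genes 3.76% did not overlap in female Amy. No such share was computed for ratios of other gene pairs, so how unusual this is was not tested. Without FTL_344 the mean ratio in THC was -2.578, the fold change of Faah 0.18 (adjusted p = 0.178) and that of Napepld -0.20 (adjusted p = 0.246). DESeq2 gave Faah an adjusted p of 0.0294, with a fold change under the threshold. The cortical marker sum moved with this result, at 449 to 678 CPM in Veh and 721 to 1040 CPM in THC with no overlap. The striatal marker sum moved too, with means of 221 ± 84.6 CPM in Veh and 398 ± 83.9 CPM in THC (SD, n = 6) and overlapping ranges, and the part of these sums in the result was not tested.

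In male Amy the estimates for the same pair lay near 0. Faah ran from 55.7 to 69.6 CPM in Veh and from 40.1 to 85.3 CPM in THC, with a log2 fold change of 0.00 (95% interval -0.29 to 0.28). Napepld ran from 11.7 to 13.5 CPM in Veh and from 7.98 to 15.1 CPM in THC, with a fold change of 0.04 (-0.22 to 0.30). FTL_352, which held striatal markers, gave the lowest value of both genes. Without it the fold changes were 0.11 (adjusted p = 0.98) for Faah and 0.15 (adjusted p = 0.98) for Napepld. Without FTL_356 they were -0.09 (adjusted p = 0.998) and 0.00 (adjusted p = 1). The mean log2 ratio of Napepld to Faah was -2.375 in Veh and -2.322 in THC, and in THC -2.287 without FTL_356 and -2.32 without FTL_352. The sex by treatment interaction for Napepld in Amy was 0.24 (95% interval -0.06 to 0.53, edgeR adjusted p = 0.416), and 0.36 without FTL_352 (unadjusted p = 0.00157, adjusted p = 0.125).

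In male NAc, where 16.7% of all genes had an unadjusted p under 0.05, Faah had the largest estimate of its 10 comparisons. Its Veh libraries ran from 26.2 to 30.4 CPM (median 29.3) and its THC libraries from 18.6 to 28.8 CPM (median 22.9), so the groups overlapped. The log2 fold change was -0.28 (SE 0.09, 95% interval -0.48 to -0.09, unadjusted p = 0.00782), which did not pass adjustment (edgeR adjusted p = 0.21). In female NAc the fold change was 0.09 (-0.08 to 0.26), and the test of the sex by treatment interaction gave -0.37 (95% interval -0.64 to -0.11, unadjusted p = 0.00793, adjusted p = 0.385). The striatal marker sum in male NAc was 1130 to 1760 CPM in Veh and 1600 to 2500 CPM in THC. The cortical marker sum there was 4.35 to 94 CPM in Veh and 1.58 to 10.5 CPM in THC. The part of these sums in the result was not tested. In female DMS, Faah had a fold change of -0.24 (-0.66 to 0.19), which became 0.00 (adjusted p = 0.994) without FTL_285, and that of Napepld went from 0.02 to 0.18 (adjusted p = 0.669).

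Abhd4 in female VTA had the smallest unadjusted p of the 50, in a comparison where 9.02% of all genes had one under 0.05. Its Veh libraries ran from 87.2 to 101.3 CPM (median 96.8) and its THC libraries from 77.5 to 91.4 CPM (median 81.9), with an overlap. The log2 fold change was -0.20 (SE 0.05, 95% interval -0.31 to -0.09, unadjusted p = 0.00173, edgeR adjusted p = 0.512). In male VTA, where Veh ran from 77 to 110 CPM, it was 0.00 (-0.20 to 0.19). Marker sums moved alongside in female VTA. The 5 microglial markers ran from 199 to 249 CPM in Veh and 150 to 223 CPM in THC. The 5 astrocyte markers ran from 1490 to 2230 CPM in Veh and 767 to 2190 CPM in THC. The VTA markers ran from 2070 to 2850 CPM in Veh and 830 to 2820 CPM in THC, and the striatal markers from 162 to 180 CPM and 97.9 to 156 CPM. Oligodendrocyte and endothelial sums moved less, with means of 13600 and 184 CPM in Veh and 13100 and 180 CPM in THC. The part of all these sums in the result was not tested.

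Gde1 showed no difference between treatments beyond its spread in any group, with log2 fold changes between -0.04 and 0.10 and unadjusted p of 0.111 or more. In female PFC, for example, Veh libraries ran from 214 to 230 CPM (median 227) and THC libraries from 220 to 273.2 CPM (median 232). Ptgs2 had fold changes from -0.49 in female DMS to 0.43 in male Amy, with unadjusted p of 0.0632 or more. In female DMS it ran from 1.15 to 3.05 CPM in Veh and from 0.883 to 2.01 CPM in THC, and the fold change was -0.29 without FTL_285 (edgeR adjusted p = 0.728). In male Amy it ran from 1.85 to 3.67 CPM in Veh and from 2.54 to 5.65 CPM in THC, and the fold change was 0.49 without FTL_352 (edgeR adjusted p = 0.98) and 0.38 without FTL_356 (adjusted p = 0.998). In female Amy it was 0.29 (-0.05 to 0.62), and 0.38 without FTL_344 (adjusted p = 0.195).

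With both sexes in 1 test, none of 25 differences was called (0 of all gene tests were), and 4 of 25 had an unadjusted p under 0.05, against 7.4% of all tests. Ptgs2 in DMS had a log2 fold change of -0.41 (95% interval -0.75 to -0.07, unadjusted p = 0.0187, edgeR adjusted p = 0.97), and of -0.31 without FTL_285 (unadjusted p = 0.0539). In Amy it had one of 0.35 (0.07 to 0.63, unadjusted p = 0.0151, adjusted p = 0.671), and of 0.38 without FTL_344 and FTL_356. Napepld had fold changes of 0.08 in PFC (adjusted p = 0.929) and -0.18 in NAc (adjusted p = 0.446). The sex by treatment interaction was called for none of 25 tests, against 0.0012% of all tests (0.0059% in Amy and 0 in the other 4 regions), with 2 of 25 at an unadjusted p under 0.05 against 8.97%. Beside Faah in NAc this was Ptgs2 in PFC, with a difference of 0.35 between the sexes' fold changes (0.04 to 0.66, adjusted p = 0.834).

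Males and females were also compared within each region. None of 25 member differences was called, against 0.645% of all tests (0.0118% in Amy, 0.113% in VTA, 0.237% in PFC, 0.25% in NAc and 2.64% in DMS). Gde1 in DMS came nearest, with a log2 difference of male minus female of -0.10 and an edgeR adjusted p of 0.0466, under the fold threshold, where 10.9% of all genes had an adjusted p under 0.05. The female DMS libraries ran from 144 to 168 CPM in Veh and 147 to 163 CPM in THC, and the male ones from 127 to 159 CPM in Veh and 135 to 152 CPM in THC, so the sexes overlapped. Without FTL_285 the adjusted p was 0.0154. Marker sums in DMS differed by sex too. The striatal sum had means of 4380 CPM (Veh) and 4300 CPM (THC) in females and 3960 and 3980 CPM in males. The astrocyte sum went the other way, at 607 and 611 CPM in females and 652 and 635 CPM in males. The ranges overlapped, and the part of these sums in the result was not tested.

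The wider endocannabinoid pathway was followed as a list of 32 receptors, synthesis and breakdown enzymes and binding proteins, of which 20 to 24 were tested in each THC comparison. Members of the list were called in female Amy only, 3 of 23 tested (13.0%, against 1.57% of all genes), with a median log2 fold change of -0.01 over the list and -0.006 over all genes. The study had already reported Cnr1 and Dagla as higher after THC in female Amy from these data. The list was chosen with earlier results known, so this share is not independent support. Cnr1, the gene of the CB1 receptor, was higher after THC by 0.45 (SE 0.11, edgeR adjusted p = 0.0438). Dagla, whose product makes 2-arachidonoylglycerol, the other main endocannabinoid, was higher by 0.43 (SE 0.10, adjusted p = 0.0452). Fabp7, a fatty acid binding protein of astrocytes and progenitors that can carry anandamide, had a log2 fold change of -0.71 (SE 0.17, adjusted p = 0.04). With each of the 12 libraries left out in turn, Cnr1 was called in 2 fits, Dagla in 1 and Fabp7 in 4, with adjusted p of 0.0103 to 0.116, 0.0286 to 0.119 and 0.0208 to 0.106. The fold changes in those fits were 0.36 to 0.49 for Cnr1, 0.35 to 0.46 for Dagla and -0.82 to -0.53 for Fabp7. Under 4 other settings with all libraries, Cnr1 was called in 3, Dagla in 4 and Fabp7 in 2. The cortical and striatal marker sums moved with these calls as with Faah, and their part was not tested. Between regions, 15.4% (NAc and Amy) to 76.9% (PFC and VTA) of 26 list genes were called, where 27.5% and 56.6% of all genes were. Cnr1 was highest in DMS at 259 ± 62.6 CPM (n = 24), where Faah and Napepld were lowest, and stood at 207 ± 13.8 CPM in PFC and 50.4 ± 6.74 CPM in VTA (n = 23).

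Within regions, some members varied together with markers of other cells or regions. The correlations are of log2 CPM after the mean of each group was taken off, with the mean over the markers of a list. Those named are mostly larger values picked from all members, lists and regions. In Amy (n = 24) Faah had an r of 0.764 (rho 0.614) with the cortical markers and 0.647 without the 2 farthest libraries, and Ptgs2 an r of 0.702 (rho 0.778). In PFC the sign was the other way for Faah (-0.575) and for Napepld (-0.571, against 0.478 in Amy). Abhd4 in Amy had an r of 0.862 (rho 0.874) with the 5 oligodendrocyte markers, and Abhd4 in VTA (n = 23) an r of 0.885 with the microglial markers. It followed other lists too, in Amy with r of 0.686 (astrocytes), 0.556 (microglia) and 0.535 (endothelium). In VTA these were 0.73 (endothelium), 0.649 (oligodendrocytes) and 0.625 (astrocytes). Ptgs2 in VTA had an r of 0.837 with astrocyte markers and 0.793 with endothelial markers. Napepld in Amy had an r of -0.799 (rho -0.62) with the striatal markers, and -0.567 without the 2 farthest, and Faah one of -0.679. These were not particular to region markers. With the microglial markers in Amy, r was -0.772 for Napepld and -0.709 for Faah. With the oligodendrocyte markers it was -0.663 (rho -0.693) for Faah and -0.478 for Napepld. In DMS the r of 0.66 between Faah and the cortical markers fell to -0.016 without the 2 farthest libraries, so it rested on those. In NAc Faah had an r of -0.747 with the striatal markers, and -0.782 without the 2 farthest. Gde1 in DMS had an r of 0.808 (rho 0.729) with the striatal markers, and 0.612 without the 2 farthest. Its r there was 0.726 with the microglial markers and -0.695 with the astrocyte markers. Ptgs2, an activity-induced gene elsewhere, had r of 0 to 0.272 with 9 immediate early genes over the 119 libraries, the highest with Arc. With their mean deviation it had an r of 0.421 in PFC, 0.348 in NAc, 0.293 in Amy, 0.201 in DMS and -0.149 in VTA. These points share punch, library and depth, so no test was made of them.

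**Figure D5:**
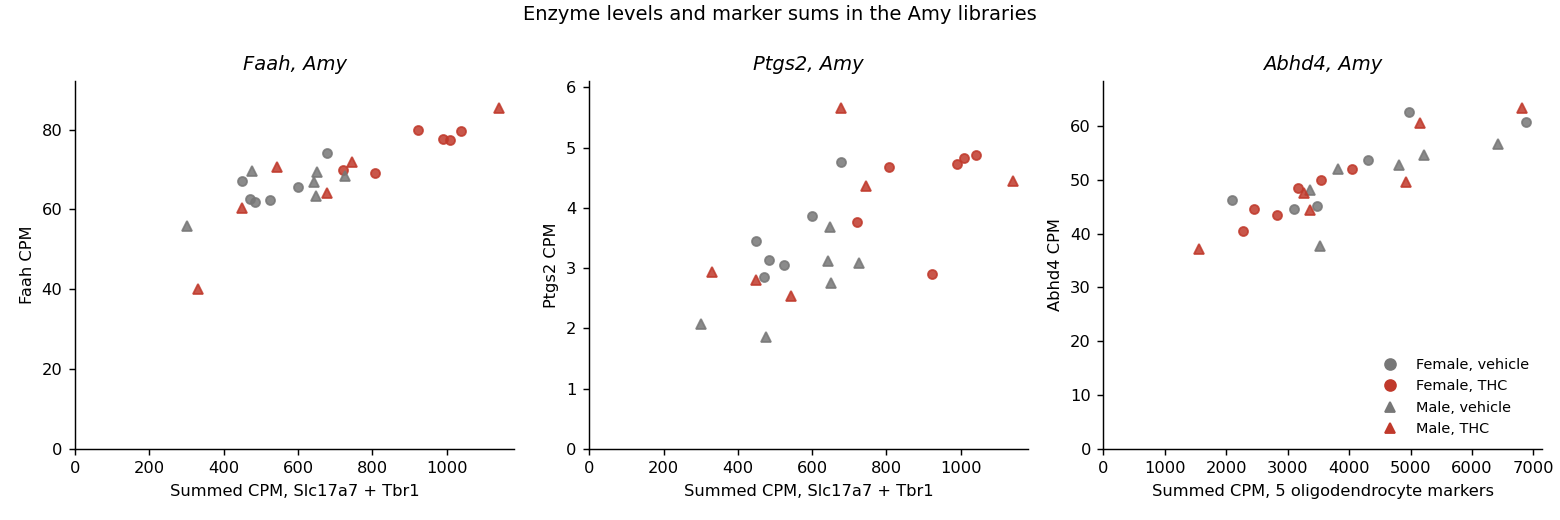
Amy libraries as points, by sex and treatment: Faah and Ptgs2 (CPM, y axes) against the summed CPM of the cortical markers Slc17a7 and Tbr1 (x axis), and Abhd4 against the summed CPM of 5 oligodendrocyte markers. Each gene rises with its marker sum. The r of 0.764, 0.702 and 0.862 are for deviations of log2 values from group means, with the mean over the markers, and not for the plotted sums.

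The genes most like each member over the log2 CPM of the 119 libraries were, for Napepld, Nrn1 (Pearson r 0.968), Cdk14 (0.968) and Shisa4 (0.966). For Faah they were Prkar1b (0.984), Mfsd4a (0.98) and Ptprk (0.98), and for Gde1 Snap25 (0.952), Adap1 (0.952) and Bzw1 (0.945). For Abhd4 they were Cers2 (0.96), Arhgef10 (0.957) and Clic4 (0.956), and for Ptgs2 Stx1a (0.946), Ovol2 (0.942) and Tspan5 (0.94). These libraries share region, punch and depth, and the values are descriptions. On deviations from group means, the most like were Ptprk for Napepld (r 0.629, rho 0.465) and Fam155a for Faah (0.727, rho 0.465). For Abhd4 it was Csrp1 (0.75, rho 0.641), for Gde1 Pgk1 (0.785, rho 0.736) and for Ptgs2 Igfbp6 (0.586, rho 0.629). Ptprk was thus among the closest genes of Faah over all libraries and the closest of Napepld within groups.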

How the data were processed

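Messenger RNA from 119 tissue punches was sequenced with a directional kit. Per the labels (the submitters' processing notes), reads were trimmed (cutadapt 2.9), aligned to mm10 (STAR 2.7.3a) and quantified (RSEM 1.3.1). The deposited tables hold the expected counts the authors obtained per gene symbol, which were rounded to whole numbers here. They came as 1 set of 48 libraries (PFC and DMS) and another of 71 (NAc, Amy and VTA), and what else differed between the sets is not known. A difference between regions of different sets may therefore hold a difference between the sets. No column was left unused. The study's methods report dropping a male VTA sample as an outlier, without naming the library. All 119 libraries were kept here, so the male VTA values may include that sample. The strand setting of the counting is not given in the sources used here, and Napepld and Gde1 each overlap a gene on the other strand.

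Genes were filtered with filterByExpr and scaled by TMM, and differences were tested with edgeR's quasi-likelihood test with BH adjustment over all genes tested, after tests on simulated data. Versions were edgeR 4.0.16, DESeq2 1.42.0 and R 4.3.3. THC was compared within each region and sex, over both sexes, and by the interaction, and regions by the means of their 4 groups. Alternatives were DESeq2 or its size factors, no filter, 1 fit per region, parts of the libraries, and leaving out libraries. The members, the pathway list and the markers were chosen with earlier results of these data known. Named genes were the members, pathway genes called in a THC comparison, and the 3 genes most like each member by Pearson r. A change of sign counted as a reversal only where the 95% interval excluded 0.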

Additional observations from a re-analysis of the deposited data

Results flagged for a closer look

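Within each of 100 groups (5 genes in 20 groups), the highest or lowest library was compared with the others by Dixon's test, and 7 stood apart, where chance alone gives about 1 in 20, or 5. Faah was 26.4 CPM in the female DMS Veh library FTL_285 against 11.4 to 15.9 CPM in the other 5, and this library also held cortical markers. Faah was 47.7 CPM in a female VTA Veh library against 36.6 to 40.4 CPM. Napepld was 7.98 CPM in the male Amy THC library FTL_352, which held striatal markers, against 13.3 to 15.1 CPM. Napepld was 15.4 CPM in a male PFC Veh library against 16.4 to 16.5 CPM in the other 5, a gap of little size in a tight group. Gde1 was 174 CPM in a female Amy Veh library against 134 to 145 CPM, and 128 CPM in a male Amy Veh library against 142 to 147 CPM. Ptgs2 was 2.57 CPM in a male DMS Veh library, from 54 counts, against 1.17 to 1.69 CPM. No member had an interaction of sex and treatment with an adjusted p under 0.05.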

How the results depend on the processing

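Of 1601 values of 175 member differences under alternatives, 1596 kept their side of the threshold and, where the 95% interval excluded 0, their direction. The sign changed in 48 of the 1601, in all but 1 where the interval held 0. Every count of members called stayed within 1.5 times. DMS minus VTA for Gde1 turned from -0.09 to 0.0083 in female libraries, and the cause was not tested. Between PFC and Amy, Napepld passed the fold threshold with DESeq2 (0.41), its size factors (0.40) and males alone (0.44), and Abhd4 with Veh libraries alone (-0.41), which raised the members called between those regions from 3 to 4. CPM without TMM factors gave PFC levels of 35.9 (Abhd4), 94.6 (Faah), 214 (Gde1) and 15.7 (Napepld), by the construction of the scale. Lengths from merged exons, which lower the level per kb of Faah from 26.8 to 13.1 in PFC and from 17.8 to 8.68 in Amy, and leaving out FTL_285 or FTL_352 from fits of whole regions, were chosen after seeing the data. In 385 alternative values of THC effects no member was called, and the lowest adjusted p was 0.0294 (Faah, female Amy, DESeq2). A few of these values, from DESeq2, had no adjusted p and could not be called. Counts of calls over all genes were less stable. Those in female Amy (1.57% of genes) ran from 56 genes without FTL_342 to 546 with DESeq2, those in female DMS from 0 to 22 (2 as reported), and DESeq2 gave 20 in male NAc and 1 to 3 in female PFC, in VTA of each sex, over both sexes in Amy and in the DMS interaction, where 0 were reported. The Amy interaction held 1, with 0 to 21. Males against females held 2 in Amy, with 1 to 14 (14 without FTL_344 and FTL_356), 42 in NAc, with 29 to 65, 19 in VTA, with 14 to 31, and 438 in DMS, with 817 without FTL_285. No paired analysis was possible because the library numbers are unique and the labels tie no library to a mouse. Counting depth limits Ptgs2 outside PFC, where medians were 30.5 to 89.5 counts.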

Other observations

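Other enzymes that handle NAPE and anandamide, named for their roles after their values were seen, had regional orders of their own. Pla2g4e, the calcium-dependent N-acyltransferase that makes NAPE, was highest in PFC, like Napepld, at 15.5 ± 2.22 CPM (SD, n = 24) against 4.07 ± 0.713 CPM in DMS, a log2 difference of 1.93 (edgeR adjusted p = 7.59e-53). Plaat3, a phospholipase and acyltransferase of a family that can also make NAPE, was lowest in PFC at 21 ± 2.06 CPM and highest in VTA at 63.9 ± 8.04 CPM (n = 23). Naaa, the lysosomal acid amidase that hydrolyses N-acylethanolamines, ran opposite to Faah between PFC and DMS, at 22 ± 1.59 CPM in PFC and 34.6 ± 4.13 CPM in DMS (log2 difference of PFC minus DMS -0.65, adjusted p = 3.6e-27). Ptgs1, the other cyclooxygenase, was highest in PFC, like Ptgs2, but by less, at 16.5 ± 1.3 CPM against 9.34 ± 0.933 CPM in DMS (log2 difference 0.82, adjusted p = 3.78e-29).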
